A study of Mus musculus with 52 samples.

Results

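The liver was examined 1 hour after partial hepatectomy by comparing the 3 arrays taken at that time with the 5 arrays of untreated livers, 8 of the 52 arrays of the series, chosen by their titles. All mice were labelled male C57Bl6/N and 8 to 12 weeks old, carried no stated genetic change and ate a standard diet freely before and after surgery. The operation removes most of the liver and leaves the remaining lobes to regrow. The operated group is called 1 hour and the untreated group control, and 4 arrays of livers at 6 hours served as a second comparison. Sham-operated livers were not analysed here, and surgery, loss of tissue and time of day cannot be told apart in a difference from the controls. The p-values rest on a spread within groups that was pooled over all 52 arrays of the series, not on the compared arrays alone. The labels do not state that each array came from its own mouse, so this spread may be technical.

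As background, loss of liver tissue starts a priming phase in which resting hepatocytes switch on immediate early genes from factors already present in the cell, before any protein has to be made. Cytokines such as IL-6 from resident macrophages act through STAT3, stress kinases act on JUN, FOS and ATF3, and hormones act on the metabolic genes of the remaining hepatocytes. DNA synthesis follows much later, so 1 hour lies well before cell division.

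Total RNA was read on arrays on which each gene has 1 or more sets of short probes. Levels are log2 values, changes are 1 hour minus control on the log2 scale ± SE of the limma fit, and a call means an adjusted p below 0.05. Of 18193 genes tested, 917 (5.04%) were called, with 668 (3.67%) higher and 249 (1.37%) lower at 1 hour. These shares are the background for the list counts below, and few or no calls in a short list lie near them. A change of at least 2-fold was seen for 153 of the genes that were called higher and for 45 that were called lower. The higher genes were 72.8% of the calls, against 83.2% after median centring of the arrays and 49.6% after a further quantile normalization. A fit of the 1-hour and control arrays alone called 727 genes, 50.5% of them higher, and 375 of these were among the 917. Among the 917 called genes, 628 of those higher and 236 of those lower had arrays that did not overlap between the groups. Over all genes tested, the groups did not overlap upwards for 11.3% and downwards for 7.79%.

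Control replicate 1 stood apart and bears on many of these calls. Its Gapdh signal was 2.56 higher on the log2 scale at the 3′ than at the 5′ probe set, against 0.77 to 1.03 at 1 hour and a mean of 1.61 over the controls. It was the lowest control for 608 of the 668 genes called higher (91.0%), against 6009 of all 18193 genes (33.0%). Without it 334 genes were called, 240 higher and 94 lower, and 329 of these were among the 917. The added hybridization controls, which report how the array was hybridized and not the liver, averaged 10.30 ± 0.24 at 1 hour (range 10.10 to 10.57) and 10.85 ± 0.29 in controls (range 10.60 to 11.28; SD, n = 3 and 5). These ranges do not overlap, so this measure and the group cannot be told apart, and with it as a covariate 16 genes were called, 15 of them among the 917. The same holds for the added poly-A controls, at 5.90 to 6.25 at 1 hour and 6.26 to 7.25 in controls. It also holds for the Gapdh difference, whose lowest control was 1.11. Under the 19 other fits together 77 genes stayed called, 62 higher and 15 lower, and 12 of these were also called with the hybridization covariate. Mt1, Mt2, Atf3, Maff, Rgs1, Clk1 and Clec2d are among the 12.

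**Figure D1:**
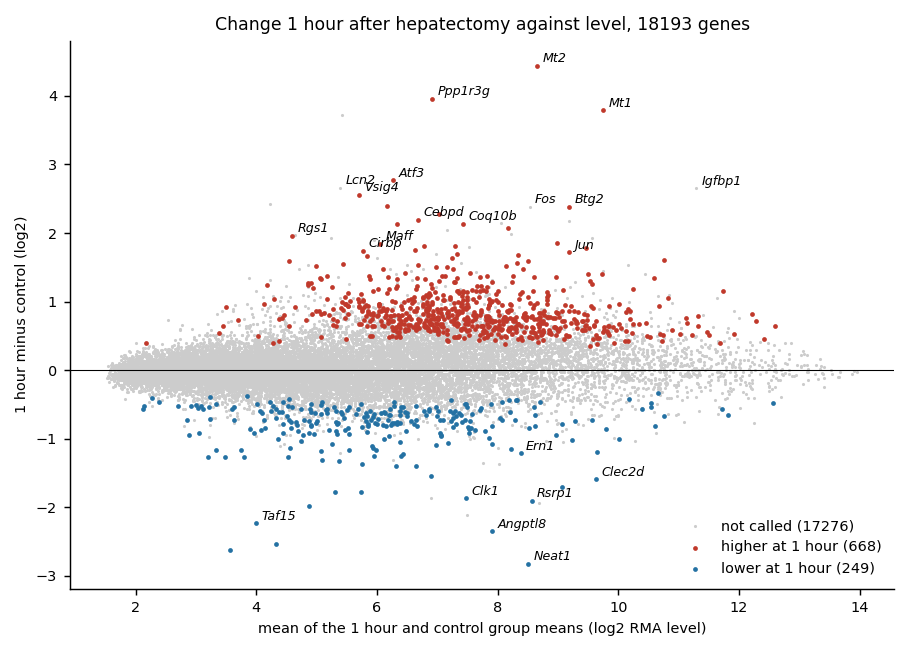
Each point is 1 gene, with the mean of the 2 group means on the x axis and the change from control to 1 hour on the y axis, both log2. Red points are the 668 genes called higher at 1 hour and blue points the 249 called lower; Mt2 (4.44), Ppp1r3g (3.96) and Mt1 (3.79) are the 3 highest points, and Neat1 (-2.82) is the lowest.

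The metallothionein genes Mt2 and Mt1 had the largest and the third largest called increase 1 hour after the operation, with Ppp1r3g between them. Metallothioneins are small cysteine-rich proteins that bind zinc and copper, and their genes are switched on by zinc through the factor MTF1, by glucocorticoids and, in liver, by IL-6. Mt1 and Mt2 lie side by side on chromosome 8, at chr8:94178883-94180327 and chr8:94172618-94173567 of GRCm38.p6. RefSeq promoter windows, 250 bases before to 50 after the start, were searched on both strands for TGCNCNC, where N is any base. This is a loose pattern for the core of the metal response element that MTF1 binds, so a match need not be such an element. The Mt2 window held 6 matches and the Mt1 window 3, and 51.0% of the 32851 promoters in the table held at least 1, while 7.1% held 3 or more and 0.70% held 5 or more. The Mt1 window is set at a start that lies inside the span given above for Mt1, not at its first base. A match is a string of letters and was not shown to be bound. The promoter of Mt2 is printed because this gene changed most, with the 200 bases before the start (chr8:94172418-94172617, + strand, GRCm38.p6) and the matches within them in capitals.

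Mt2: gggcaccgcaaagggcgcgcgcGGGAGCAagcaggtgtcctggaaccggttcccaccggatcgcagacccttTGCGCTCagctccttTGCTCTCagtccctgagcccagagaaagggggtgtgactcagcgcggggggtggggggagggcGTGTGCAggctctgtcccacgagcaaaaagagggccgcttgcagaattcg

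Mt2 had levels of 11.14, 11.75 and 9.75 at 1 hour, against 5.56, 8.25, 5.73, 5.82 and 6.86 in the controls. The groups did not overlap, 1-hour replicate 3 was the lowest of its group, and control replicate 2 was the highest control. The difference was 4.44 ± 0.54, or 21.7-fold (adjusted p = 3.1e-06). Mt1 had levels of 11.88, 12.34 and 10.70 at 1 hour, against 6.55, 10.28, 7.07, 6.88 and 8.46 in the controls, with the same arrays lowest and highest. Its groups did not overlap either, with control replicate 2 just below the lowest 1-hour array, and the difference was 3.79 ± 0.48, or 13.9-fold (adjusted p = 4.6e-06). Both genes stayed called under every alternative fit, with Mt2 at 4.22 and Mt1 at 3.47 without control replicate 1.

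Of the 10 measured genes of the metallothionein and zinc transport list, 3 were called higher and 0 lower, with a list median of 0.06 against 0.01 for all genes. The third was Slc30a1, which encodes ZnT1, the exporter of zinc across the plasma membrane. Slc30a1 had levels of 8.40, 8.32 and 8.30 at 1 hour, against 6.45, 7.50, 7.41, 6.86 and 7.60 in the controls (1.17 ± 0.28, adjusted p = 0.0083). All 3 arrays lay above all controls, and the call was lost without 1-hour replicate 1 and without control replicate 1 (0.99, adjusted p = 0.052). Another probe set of Slc30a1 gave 0.61 (adjusted p = 0.19). The other members did not pass. Mt3 (-0.07, adjusted p = 0.93) and Mt4 (0.33, adjusted p = 0.7), metallothioneins known from brain and squamous epithelium, lay near or below the median of all probe sets, which was 3.98 at 1 hour and 4.04 in controls. Mtf1, the zinc sensor itself, had a difference of -0.33 (95% interval -0.66 to 0.01) and 0.64 by another probe set, and the zinc importers Slc39a14 (0.05), Slc39a4 (0.07) and Slc39a10 (-0.29) and the transporter Slc30a10 (-0.39) had adjusted p-values of 0.73 to 0.97.

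**Figure D2:**
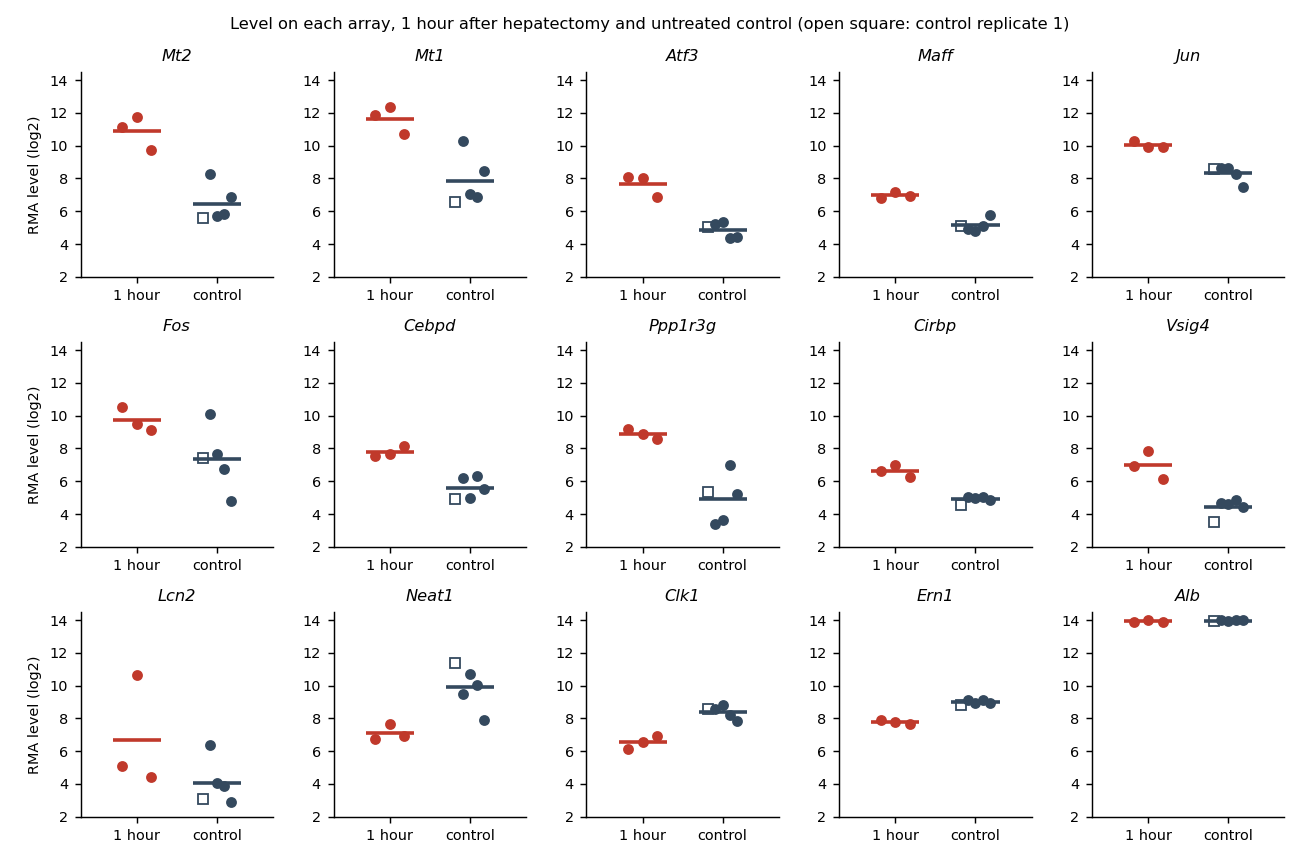
Levels (log2 RMA values, y axis) on every array for 15 genes, with the 3 arrays at 1 hour (red) left of the 5 controls (dark), bars at the group means and control replicate 1 as an open square. Mt2, Mt1, Atf3, Maff, Jun, Cebpd, Ppp1r3g, Cirbp and Vsig4 lie above all controls at 1 hour, Neat1, Clk1 and Ern1 lie below all controls, and Fos, Lcn2 and Alb overlap.

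Among transcription factors of the immediate early class, Atf3 and Maff were the clearest. ATF3 is a stress-induced factor of the ATF/CREB family that often represses its targets, and MAFF is a small MAF protein that pairs with larger leucine zipper factors. Atf3 had levels of 8.12, 8.00 and 6.84 at 1 hour, against 5.01, 5.25, 5.35, 4.37 and 4.44 in the controls, a difference of 2.77 ± 0.43 or 6.81-fold (adjusted p = 0.00022). Maff had levels of 6.81, 7.18 and 6.93 at 1 hour, against 5.09, 4.90, 4.80, 5.11 and 5.78 in the controls, a difference of 1.84 ± 0.32 or 3.58-fold (adjusted p = 0.00051). For both genes every 1-hour array lay above every control, and both stayed called under every alternative fit.

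The promoters of these genes are shown because cAMP response elements, bound by CREB and ATF proteins, are known from immediate early genes. The core site TGACG, part of this element, was searched on both strands, and 20.8% of the promoters in the table held it, while the full palindrome TGACGTCA, which contains the core site on each strand, was held by 1.8%. Of 3 annotated starts of Maff, the second held the palindrome, the third held 1 core site and the first none, and the second was chosen for printing after the search. Atf3 is shown at chr1:191183334-191183533 (- strand) and Maff at chr15:79347320-79347519 (+ strand) of GRCm38.p6, 200 bases before the start each, 5′ to 3′, with core sites in capitals.

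Atf3: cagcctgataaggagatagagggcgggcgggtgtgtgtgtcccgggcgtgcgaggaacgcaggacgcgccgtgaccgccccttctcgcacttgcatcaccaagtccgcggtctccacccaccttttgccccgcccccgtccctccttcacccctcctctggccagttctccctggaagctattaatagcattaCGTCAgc

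Maff: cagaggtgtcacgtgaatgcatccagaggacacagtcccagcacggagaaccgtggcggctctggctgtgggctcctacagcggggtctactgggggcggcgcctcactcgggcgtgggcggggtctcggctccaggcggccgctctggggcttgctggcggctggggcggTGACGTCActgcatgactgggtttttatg

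Over the genes called higher that had a promoter in the table, 45.6% of 537 held the core site, against 38.8% of 196 genes called lower and 30.0% of all 14452 tested genes with a promoter. Among genes at least as strongly expressed in controls as the median gene called higher, the share was 37.6% of 3265. These shares are a description and were not tested. The AP-1 site TGANTCA was held by 5.8% of the genes called higher and 7.5% of all tested, and the STAT site TTCNNNGAA by 6.7% and 8.6%.

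Of 14 measured AP-1, ATF and small MAF genes, 3 were called higher (Atf3, Maff and Jun) and 1 lower (Atf4), with a list median of 0.15. Jun, the stress kinase target and main AP-1 subunit of early regeneration, had levels of 10.29, 9.90 and 9.92 at 1 hour, against 8.59, 8.62, 8.66, 8.25 and 7.48 in the controls. All 1-hour arrays lay above all controls (1.72 ± 0.49, adjusted p = 0.031), and the call was lost when any 1-hour array, control replicate 1 or control replicate 5 was left out. Another probe set of Jun was also called higher, at 1.93 (adjusted p = 0.002). Its partner Fos had levels of 10.51, 9.50 and 9.15 at 1 hour, against 7.40, 10.10, 7.66, 6.74 and 4.79 in the controls. Control replicate 2 alone overlapped the 1-hour arrays, and the difference of 2.38 ± 0.85 did not pass (adjusted p = 0.095) with all controls and passed without that array. Atf4, the main factor of the integrated stress response, had levels of 8.43 to 8.55 at 1 hour and 8.94 to 9.93 in controls (-0.94 ± 0.28, adjusted p = 0.038), a call lost without any one of the 3 1-hour arrays or control replicates 1, 2 or 3. Junb did not pass (0.69 ± 0.37, adjusted p = 0.34).

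Among 18 genes of the EGR, KLF and NR4A class, 2 were called higher and 0 lower, with a median of 0.01. Csrnp1, a nuclear factor induced by growth signals and AXIN, had levels of 8.07, 7.87 and 7.88 at 1 hour, against 7.31, 6.45, 6.63, 6.36 and 6.50 in the controls (1.29 ± 0.24, adjusted p = 0.001). Control replicate 1 was the highest control here, so the gap was wider without it (1.45), while another probe set gave 0.19. Klf2, known as a flow-responsive factor of endothelium, reached 5.90 to 6.10 at 1 hour and 4.53 to 5.26 in controls (0.97 ± 0.24, adjusted p = 0.012), a call lost without 1-hour replicate 1 or 3 or control replicate 1. Egr1, the classic serum-response gene, had levels of 12.03, 11.32 and 10.81 at 1 hour, against 10.63, 10.81, 10.59, 10.69 and 8.77 in the controls. Its level in untreated liver was thus already high, the difference of 1.09 ± 0.63 did not pass (adjusted p = 0.39), and its 95% interval ran from -0.18 to 2.36. Nr4a1, an orphan nuclear receptor of the same class, had a difference of 1.28 ± 0.64 (adjusted p = 0.3), with control replicate 1 at 8.96 above all 1-hour arrays (8.34 to 8.89) and the other controls at 6.29 to 7.18.

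Of 26 other immediate early and growth feedback genes, 6 were called higher and 0 lower, and 23 had a positive difference, with a list median of 0.58 against 0.01 for all genes. Btg2, an antiproliferative p53 target that is also an immediate early gene, had levels of 10.99, 10.82 and 9.28 at 1 hour, against 8.09, 8.87, 8.36, 7.95 and 6.68 in the controls (2.38 ± 0.60, adjusted p = 0.013). The call for Btg2 was lost without 1-hour replicate 1 or 2, while another probe set was also called, at 2.44 (adjusted p = 0.0079). Rgs1, a GTPase activator that dampens G protein signalling and is best known from leukocytes, had levels of 5.89, 5.65 and 5.20 at 1 hour, against 2.99, 3.51, 3.99, 3.98 and 3.64 in the controls. The control mean lay below the median of all probe sets, so the change was at least 2.9-fold (1.96 ± 0.35, adjusted p = 0.00091), and the call stood under every alternative fit.

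Sgk1, a kinase induced by glucocorticoids and serum, rose by 1.69 ± 0.48 (adjusted p = 0.028), with 8.01 to 8.25 at 1 hour and 6.11 to 6.89 in controls, and lost its call without any one of the 1-hour arrays or control replicate 5. Pim3, a survival kinase, rose by 1.40 ± 0.33 (adjusted p = 0.008) and lost its call without 1-hour replicate 1. Spry4, a feedback inhibitor of receptor tyrosine kinase signalling, rose by 1.27 ± 0.30 (adjusted p = 0.0076) and lost its call without 1-hour replicate 2 or 3. Other probe sets of Pim3 and Spry4 gave 0.39 and 0.08. Over the whole list, 2, 2 and 3 members were called without 1-hour replicates 1, 2 and 3, and 5 without control replicate 1. Ier3, an apoptosis regulator of this class, was close to background at 1 hour with 4.62, 4.26 and 5.20, against 3.96, 3.61, 3.37, 4.11 and 3.76 in the controls (0.93 ± 0.77, adjusted p = 0.61).

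Myc, whose protein drives growth and ribosome production, had levels of 6.73, 7.53 and 7.61 at 1 hour, against 7.02, 5.05, 4.31, 6.20 and 6.67 in the controls. The groups overlapped through control replicate 1, and the difference of 1.44 ± 0.54 did not pass (adjusted p = 0.12). None of the 13 measured genes of the Myc, Max and Mxd network passed, and none of 24 ribosome biogenesis genes did, in the limma fit in which 3136 of all genes had an unadjusted p under 0.05.

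**Figure D3:**
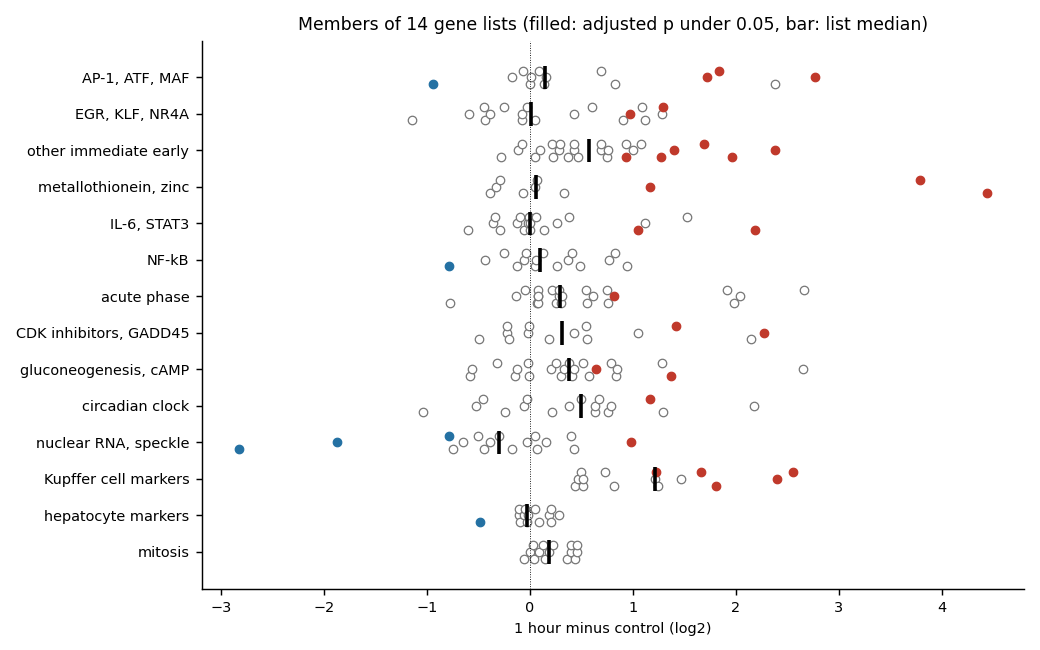
Change from control to 1 hour (log2, x axis) for every measured member of 14 gene lists, with filled points for called genes (red higher, blue lower), open points for those that did not pass and a black bar at each list's median. The Kupffer cell markers have the highest median (1.22), the other immediate early genes lie mostly above 0 (median 0.58), and the hepatocyte markers stay close to 0 (median -0.03).

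Cebpb, Cebpd, Gadd45a and Gadd45b were called higher, while Cebpa (-0.53, adjusted p = 0.56) and Gadd45g (2.15, adjusted p = 0.13) did not pass, and these last 2 are named here after their values were seen. CEBPB and CEBPD carry the IL-6 signal to acute phase genes and act in hepatocyte growth. Cebpd had levels of 7.55, 7.66 and 8.12 at 1 hour, against 4.89, 6.21, 5.00, 6.30 and 5.52 in the controls (2.19 ± 0.47, 4.57-fold, adjusted p = 0.0036). Cebpb had levels of 11.42, 11.20 and 11.43 at 1 hour, against 10.50, 10.49, 9.86, 10.16 and 10.51 in the controls (1.05 ± 0.23, 2.07-fold, adjusted p = 0.0051). Neither gene's groups overlapped, and both calls stood under every alternative fit but the hybridization covariate. Another probe set gave 1.03 for Cebpb and 0.44 (adjusted p = 0.34) for Cebpd.

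Gadd45a, which binds PCNA and stress kinases, had levels of 8.40, 8.05 and 8.01 at 1 hour, against 5.44, 5.94, 6.35, 5.23 and 6.47 in the controls (2.27 ± 0.55, 4.82-fold, adjusted p = 0.0092), a call lost without 1-hour replicate 1. Gadd45b had levels of 7.86, 7.33 and 6.34 at 1 hour, against 4.53, 6.31, 5.73, 6.23 and 5.98 in the controls (1.42 ± 0.41, adjusted p = 0.031). Its lowest 1-hour array was almost level with control replicate 2, and the call was lost without 1-hour replicate 1 or 2 or control replicate 1 or 3, while another probe set gave 0.03. Cdkn1a, which encodes the CDK inhibitor p21, was at 5.29, 4.95 and 5.06 at 1 hour, against 5.66, 5.20, 4.81, 5.34 and 4.54 in the controls (-0.01, 95% interval -1.29 to 1.26). The GADD45 and CDK inhibitor list of 14 genes thus held 2 called higher and 0 lower.

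Il6 and Tnf encode cytokines of the priming phase. Il6 lay at 1.71 to 2.10 at 1 hour and 1.63 to 2.14 in controls, and Tnf at 3.72 to 4.20 at 1 hour and 3.50 to 3.89 in controls, all near or below the median of all probe sets, so whole-liver RNA gives no level for them. Socs3, the STAT3-induced inhibitor of IL-6 signalling, had levels of 8.86, 8.70 and 7.53 at 1 hour, against 7.91, 8.22, 6.00, 6.90 and 7.18 in the controls, and its difference of 1.12 ± 0.60 did not pass (adjusted p = 0.34). Of 19 IL-6 and STAT3 genes, the 2 C/EBP genes were the ones called. Nfkbia, the NF-kB inhibitor and early NF-kB target, lay at 10.66, 10.56 and 10.43 at 1 hour, against 9.63, 9.65, 9.82, 9.70 and 9.82 in the controls. These groups did not overlap and were each tight, yet the difference of 0.83 ± 0.31 did not pass in the limma fit over all 52 arrays (adjusted p = 0.13), and it passed in the fit of these 2 groups alone. Nfkb2 was the only called gene of 16 in the NF-kB list, and it was lower (-0.78 ± 0.20, adjusted p = 0.013), a call lost without 1-hour replicate 1 or control replicate 1. For Nfkb2 another probe set gave -0.18 (adjusted p = 0.75). None of 16 chemokines and adhesion molecules passed.

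Ppp1r3g had the second largest called increase after Mt2. Ppp1r3g, which encodes a subunit that targets protein phosphatase 1 to glycogen and is known to respond to feeding state in liver, had levels of 9.21, 8.89 and 8.59 at 1 hour, against 5.36, 3.42, 3.64, 7.02 and 5.24 in the controls. The groups did not overlap and the difference was 3.96 ± 1.05 (adjusted p = 0.018), but the controls spread widely, and the call was lost without any one of the 1-hour arrays or control replicate 3. Igfbp1, a secreted IGF binding protein induced by fasting, stress and hepatectomy, had 12.63, 12.68 and 12.55 at 1 hour, against 11.22, 11.16, 8.44, 11.19 and 7.86 in the controls. All 1-hour arrays lay above all controls, and the difference of 2.65 ± 0.84 missed the threshold (adjusted p = 0.056), passing without control replicate 2 or 4. Angptl8, a feeding-induced regulator of lipoprotein lipase, was lower with 6.64, 7.08 and 6.49 at 1 hour, against 8.96, 9.28, 10.82, 7.72 and 8.66 in the controls (-2.35 ± 0.73, adjusted p = 0.049). That call was lost when any 1-hour array or any control except replicate 4 was left out.

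Of 23 gluconeogenesis and cAMP response genes, 2 were called higher and 0 lower, with a median of 0.38. Sik1, a kinase induced by cAMP that restrains CREB coactivators, had 6.44, 6.48 and 6.74 at 1 hour, against 6.36, 5.14, 4.55, 4.56 and 5.31 in the controls (1.37 ± 0.42, adjusted p = 0.044). Control replicate 1 lay just below the 1-hour arrays, and the call was lost without any other single array of the groups. For Sik1 another probe set gave 0.74 (adjusted p = 0.25). Fbp1, which encodes fructose-1,6-bisphosphatase, was called higher (0.64 ± 0.17, adjusted p = 0.02), with control replicate 1 at 11.32 and the other controls at 12.31 to 12.70 against 12.90 to 12.92 at 1 hour. Without control replicate 1 the Fbp1 difference was 0.41 (adjusted p = 0.12), and the call was lost without any 1-hour array too. Of 18 glucocorticoid-responsive genes, Mt2 and Sgk1 were called higher and 0 were lower. Pck1, the PEPCK gene, had a difference of 0.41 (95% interval 0.11 to 0.71, adjusted p = 0.1), G6pc 0.58 (-0.43 to 1.60) and Ppargc1a -0.02 (-0.77 to 0.72), none of which passed.

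Several single genes outside these classes were among the most changed. Coq10b, a mitochondrial coenzyme Q binding protein, had 8.23, 8.47 and 8.75 at 1 hour, against 5.80, 6.41, 5.47, 6.48 and 7.63 in the controls (2.13 ± 0.36, 4.37-fold, adjusted p = 0.0004). Cirbp, the cold-inducible RNA-binding protein, had 6.61, 7.01 and 6.28 at 1 hour, against 4.56, 5.03, 5.00, 5.04 and 4.85 in the controls (1.74 ± 0.33, 3.33-fold, adjusted p = 0.0011). Both sets of groups were apart, and both calls stood under every alternative fit but the hybridization covariate. Tff3, a secreted trefoil peptide, had 7.17, 8.65 and 6.36 at 1 hour, against 5.40, 5.55, 5.60, 4.66 and 5.13 in the controls (2.13 ± 0.54, adjusted p = 0.014), with 1-hour replicate 2 far above the others, and lost its call without 1-hour replicate 1 or 2. Ifrd1 (1.81 ± 0.45, adjusted p = 0.011), a transcriptional coregulator, lost its call without 1-hour replicate 1 or 2, and Gpcpd1 (1.86 ± 0.40, adjusted p = 0.0036), a glycerophosphocholine phosphodiesterase, kept its call when any single array was left out. The Gpcpd1 call was lost with the mean of all probe sets and with the hybridization covariate. For Gpcpd1 another probe set gave 0.49 (adjusted p = 0.71).

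Snap23 and Rab5if had control replicate 1 far below the other controls. Snap23, a membrane fusion protein, had 7.60, 7.48 and 7.46 at 1 hour, against 3.78, 6.41, 5.75, 6.72 and 6.14 in the controls, where 3.78 is control replicate 1. Its difference was 1.75 with all controls and 1.26 without that array (adjusted p = 0.0023 and 0.011). Rab5if, an endosome-linked membrane protein, had 10.47, 10.15 and 10.46 at 1 hour, against 7.04, 9.62, 8.56, 9.33 and 8.37 in the controls, and differences of 1.78 and 1.39 (adjusted p = 0.00028 and 0.00066). Both remained called without that array, but both calls were lost in the fit of the 1-hour and control arrays alone. The Snap23 call was also lost with the Gapdh and hybridization covariates (adjusted p = 0.062 and 0.16). Another probe set gave 0.73 (adjusted p = 0.022) for Snap23 and 0.39 for Rab5if.

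**Figure D4:**
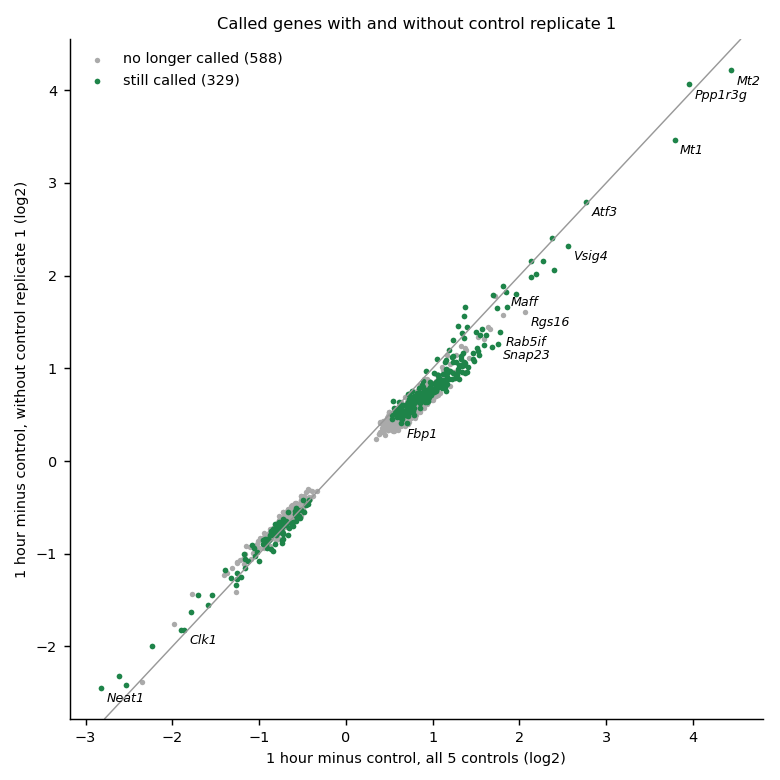
Change at 1 hour (log2) of the 917 called genes with all 5 controls (x axis) and without control replicate 1 (y axis), with the line of equality. The 329 green genes were called both times and the 588 grey genes were not called without that array; most points above 0 lie below the line, while Mt2, Atf3, Maff and Clk1 lie close to it.

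The gene with the largest called decrease was Neat1, the long noncoding RNA around which paraspeckles form in the nucleus. Neat1 had levels of 6.75, 7.65 and 6.90 at 1 hour, against 11.40, 9.51, 10.73, 10.01 and 7.93 in the controls. The groups did not overlap, the control levels spread widely, and the difference was -2.82 ± 0.57 or 7.04-fold lower (adjusted p = 0.0021). Another probe set of Neat1 gave -0.13 (adjusted p = 0.76), so the decrease was seen with the brighter probe set only. Whether stretches of this long transcript differ was not tested. Clk1, a kinase that phosphorylates SR splicing factors and whose own transcript is partly held in the nucleus unspliced, had levels of 6.16, 6.56 and 6.92 at 1 hour, against 8.60, 8.59, 8.82, 8.20 and 7.85 in the controls. Its groups were apart and tight, the difference was -1.87 ± 0.29 or 3.65-fold lower (adjusted p = 0.00022), and the call stood under every alternative fit.

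Rsrp1, an arginine and serine rich protein, fell to 7.20, 7.68 and 7.96 at 1 hour, against 9.82, 9.61, 9.80, 9.28 and 9.07 in the controls (-1.90 ± 0.33, adjusted p = 0.00051). For Rsrp1 another probe set gave -0.87 and did not pass (adjusted p = 0.12). Prpf4b, a kinase of the spliceosome, fell to 5.75, 5.96 and 6.67 at 1 hour, against 8.02, 7.72, 8.18, 7.37 and 7.02 in the controls (-1.54 ± 0.29, adjusted p = 0.0013). Another probe set of Prpf4b went the other way (0.85, adjusted p = 0.016), so its 2 called probe sets disagree in direction. Taf15, an RNA-binding protein, had 2.22, 2.93 and 3.48 at 1 hour, below the median of all probe sets, against 6.05, 5.23, 5.54, 4.28 and 4.46 in the controls. That decrease was at least 2.19-fold (-2.23 ± 0.52, adjusted p = 0.0072), another probe set gave -0.14, and the call was lost without 1-hour replicate 1.

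The list of nuclear noncoding RNAs and speckle or paraspeckle proteins, with 17 measured genes, held 1 called higher and 3 called lower, with a median of -0.30. The third lower gene was Srrm2, a core protein of nuclear speckles (-0.78 ± 0.22, adjusted p = 0.026), whose call was lost without 1-hour replicate 1 or 2 or control replicate 1 or 3. Another probe set of Srrm2 was also called lower, at -1.54 (adjusted p = 0.018). The higher one was Srsf3, a small SR splicing factor (0.98 ± 0.23, adjusted p = 0.0084), lost without 1-hour replicate 2 or control replicate 1, and another probe set of it gave -0.09. Malat1, an abundant nuclear RNA, had levels of 10.42, 10.89 and 11.72 at 1 hour, against 11.64, 10.94, 11.24, 10.56 and 9.90 in the controls, and its difference of 0.16 ± 0.68 did not pass (adjusted p = 0.96), while another of its probe sets was called lower (adjusted p = 0.021). The 3′ bias of Gapdh also moved with the groups, at 0.91 ± 0.14 at 1 hour (range 0.77 to 1.03) and 1.61 ± 0.57 in controls (range 1.11 to 2.56). As these ranges do not overlap, this bias and the group cannot be told apart, and a fit with it cannot separate them. With the Gapdh bias as a covariate Neat1 and Clk1 stayed called (adjusted p = 0.042 and 0.0061), and 2 of the 17 were called lower and 0 higher. With the hybridization covariate the Neat1 call was lost (-2.06, adjusted p = 0.14), while Clk1 stayed called (adjusted p = 0.012).

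Ern1, which encodes the endoplasmic reticulum stress sensor IRE1-alpha, was lower at 7.90, 7.76 and 7.66 at 1 hour, against 8.80, 9.12, 8.95, 9.11 and 8.93 in the controls. The groups did not overlap (-1.21 ± 0.25, 2.31-fold lower, adjusted p = 0.0027), while another probe set gave 0.14. With Atf4 it made 2 of 20 genes of the unfolded protein and integrated stress response called lower and 0 higher. Clec2d, a ligand of an inhibitory receptor of natural killer cells, was lower at 8.96, 8.55 and 8.98 at 1 hour, against 10.54, 10.22, 10.41, 10.55 and 10.35 in the controls (-1.59 ± 0.35, 3-fold lower, adjusted p = 0.0045), and stayed called under every alternative fit. Dnajb1, a heat shock cochaperone, was the only called gene of 13 cytosolic chaperones (-0.74 ± 0.22, adjusted p = 0.038), and Inhba, an activin subunit, the only one of 15 activin, BMP and TGF-beta genes (-0.65 ± 0.19, adjusted p = 0.037). Each of these 2 calls was lost in 6 of the 8 fits that left out 1 array: for Dnajb1 all but those without control replicates 1 or 5, for Inhba all but those without 1-hour replicate 2 or control replicate 3. Both calls were also lost with the mean of all probe sets. Other probe sets gave -0.03 for Dnajb1 (adjusted p = 0.97) and -0.08 for Inhba (adjusted p = 0.88).

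All 15 measured markers of Kupffer cells, the resident macrophages of the liver sinusoids, had a positive difference, 5 were called higher and 0 lower, and the list median was 1.22 against 0.01 for all genes. Vsig4, a complement receptor of Kupffer cells, had 6.93, 7.86 and 6.15 at 1 hour, against 3.49, 4.70, 4.61, 4.88 and 4.44 in the controls (2.56 ± 0.58, 5.88-fold, adjusted p = 0.006). C1qb, a chain of complement C1q, had 7.11, 8.07 and 6.94 at 1 hour, against 3.63, 5.52, 5.47, 5.67 and 4.60 in the controls (2.40 ± 0.53, 5.26-fold, adjusted p = 0.0048). No 1-hour array of either gene overlapped a control, and 1-hour replicate 2 was the highest array while control replicate 1 was the lowest.

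C1qa (1.66 ± 0.41, adjusted p = 0.01), the macrophage scavenger protein Cd5l (1.81 ± 0.51, adjusted p = 0.027) and the Kupffer lectin Clec4f (1.23 ± 0.36, adjusted p = 0.037) completed the 5. The mean of the 15 markers was 6.52, 7.17 and 6.19 on the 1-hour arrays, against 4.88, 5.63, 5.57, 5.71 and 5.48 on the controls, so the groups did not overlap. The highest of the 3 1-hour arrays was replicate 2 for 14 of the 15 markers, and without it 0 of the 15 were called in the limma fit, with a median of 0.88. Without control replicate 1, the lowest control for 11 of the 15, 2 were called with a median of 1.04. Of the 15 markers 2 lay below the median of all probe sets in both groups. Every operated group, at all 11 times, had a higher mean than the controls for Vsig4 (5.57 to 7.86 after the operation, 4.42 in controls), C1qb (6.41 to 8.30, 4.98 in controls), C1qa (5.93 to 7.33, 5.00 in controls), Cd5l (6.75 to 8.89, 6.38 in controls) and Clec4f (5.81 to 7.76, 5.71 in controls), so the higher level was not limited to 1 hour. In whole-liver RNA more cells of a type and more RNA per cell cannot be told apart.

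Of 14 hepatocyte markers 1 was called lower, Apob (-0.48 ± 0.14, adjusted p = 0.033), whose value turned to 0.66 when its probe sets were averaged and whose call was lost in 7 of the 8 fits without 1 array, all but the one without control replicate 1. Alb, albumin, lay between 13.91 and 14.01 on the 1-hour arrays, with every control between these values (-0.03, 95% interval -0.17 to 0.12), and these levels show the labelled tissue. Of 12 monocyte and other macrophage markers none passed, but 10 had a positive difference, the list median was 0.31, and the list means did not overlap, at 4.81 to 5.27 at 1 hour and 4.39 to 4.67 in controls. The difference between this list and the Kupffer list was not tested. Of 13 neutrophil markers none passed, with a median of -0.03 and list means of 4.07 to 5.13 at 1 hour and 3.94 to 4.16 in controls. Sinusoidal endothelial, stellate, cholangiocyte, T and NK cell, red blood cell, platelet, mesothelial and adipocyte or pancreas lists held 0 calls, with medians from -0.11 to 0.04. In the sinusoidal endothelial list, control replicate 1 was the lowest control for all 14 markers. Its mean for that list was 5.38, against 6.03, 6.30, 6.20 and 6.14 on the other controls. The 1-hour arrays had 5.96, 5.87 and 5.97, below those other controls, and this difference was not tested. The B and plasma cell list held 1 of 9, Blnk, which had 4.50, 4.94 and 5.02 at 1 hour, against 3.35, 3.60, 3.99, 3.50 and 4.43 in the controls (adjusted p = 0.048). The control mean lay below the median of all probe sets, so this is a change of at least 1.71-fold. The Blnk call was lost in 7 of the 8 fits without 1 array, all but the one without control replicate 5.

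The acute phase proteins, secreted by hepatocytes under IL-6 and IL-1, differed more between arrays than between groups. Of 24 genes 1 was called higher and 0 lower. The mean of the list was 9.99, 11.43 and 9.85 on the 1-hour arrays, against 9.44, 10.61, 9.67, 9.92 and 9.61 on the controls. The highest of the 3 1-hour arrays was replicate 2 for 21 of the 24 genes, and the highest of the 5 controls was replicate 2 for 20. Saa1, serum amyloid A1, had 9.24, 13.51 and 8.82 at 1 hour, against 7.14, 11.97, 8.10, 8.44 and 7.40 in the controls (1.92 ± 0.91, adjusted p = 0.26). Lcn2, lipocalin 2, had 5.07, 10.66 and 4.41 at 1 hour, against 3.06, 6.39, 4.05, 3.88 and 2.88 in the controls (2.66 ± 1.11, adjusted p = 0.18). In both, replicate 2 of either group stood far above the rest.

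The called gene was Orm1, orosomucoid 1, with 12.38, 13.15 and 12.34 at 1 hour, against 11.14, 12.49, 11.62, 12.03 and 11.72 in the controls (0.82 ± 0.24, adjusted p = 0.032). Its groups overlap through control replicate 2, and the call was lost without 1-hour replicates 1 or 2 or control replicates 1, 3 or 5. Hamp, the iron hormone hepcidin, lay below all controls at 12.01, 11.51 and 12.08 at 1 hour, against 12.79, 12.67, 12.66, 12.42 and 12.62 in the controls, and did not pass (-0.77 ± 0.58, adjusted p = 0.56). Without 1-hour replicate 2, the list held 0 calls and its median was 0.04, against 0.29 with all arrays.

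Of 15 hepatocyte transcription factors, 3 were called higher and 1 lower. Besides the C/EBP genes this was Prox1, a homeodomain factor of hepatocytes, with 7.93, 7.41 and 8.38 at 1 hour, against 6.00, 7.36, 6.88, 5.77 and 6.04 in the controls (2.82-fold, adjusted p = 0.0043). Its lowest 1-hour array was barely above control replicate 2, and the call was lost without 1-hour replicate 3. For Prox1 another probe set gave 0.37 (adjusted p = 0.46), and the call was lost with the mean of all probe sets. Onecut2, a factor of the HNF6 family, was the lower one (-0.82 ± 0.22, adjusted p = 0.019), lost without any one of the 1-hour arrays. Its call was also lost with the mean of all probe sets, and another probe set gave -0.26 (adjusted p = 0.56). Hnf4a, the central hepatocyte factor, had a difference of -0.08 (95% interval -0.33 to 0.17).

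Met, the receptor for hepatocyte growth factor, was the only called gene of 16 growth factor and receptor genes, with 8.67, 8.74 and 8.92 at 1 hour, against 7.86, 8.38, 8.20, 8.19 and 8.12 in the controls (0.63 ± 0.15, adjusted p = 0.0076), lost without 1-hour replicate 3. For Met another probe set gave 0.58 (adjusted p = 0.15). Among 15 SRF and YAP targets, Actg1, cytoplasmic actin gamma, was higher (1.34 ± 0.32, adjusted p = 0.0087), a call lost without 1-hour replicate 1. The matricellular protein gene Ccn1 was higher by its brightest probe set (1.23 ± 0.34, adjusted p = 0.023), and another probe set gave -1.08. The Ccn1 call was lost without 1-hour replicate 1 or control replicates 4 or 5.

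Ccnd1, cyclin D1, had 7.24, 8.42 and 7.36 at 1 hour, against 6.17, 6.65, 6.79, 6.49 and 7.12 in the controls, and did not pass (1.03 ± 0.65, adjusted p = 0.44). Mki67, a marker of dividing cells, stayed below the median of all probe sets at 3.56 to 4.03 at 1 hour and 3.15 to 3.61 in controls, except for 1-hour replicate 2 at 4.03. None of 18 DNA replication and none of 15 mitosis genes passed, and 11 of the mitosis genes were below the median of all probe sets in both groups. Lists of NRF2 targets, hypoxia targets, cholesterol synthesis, fatty acid synthesis, bile acid synthesis, P450 enzymes, the respiratory chain and male-biased liver genes also held 0 calls. Over all genes tested 5.04% were called, so few or no calls in lists of this size are near that share and are no result about the lists. Among 19 fatty acid oxidation genes, Hadhb, a subunit of the trifunctional protein, was called higher (0.94 ± 0.21, adjusted p = 0.005). Control replicate 1 had 8.17 for Hadhb and the difference was 0.63 without it, another probe set gave -0.64, and the call was lost without 1-hour replicate 1.

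Clock genes bear on the unstated time of day. Of 17 measured, Bhlhe40, a repressor in the clock loop that also responds to stress, was called (1.17 ± 0.35, adjusted p = 0.036), with 9.64, 9.81 and 9.58 at 1 hour, against 8.37, 8.15, 8.91, 8.14 and 8.93 in the controls. Its arrays did not overlap, but the call was lost without any one of the 1-hour arrays or control replicates 1, 2 or 4. Per1 had 6.38, 6.13 and 6.58 at 1 hour, against 5.62, 6.03, 5.69, 5.84 and 6.72 in the controls, and did not pass (0.38 ± 0.22, adjusted p = 0.39). The list median was 0.50, and the part of time of day was not tested. Rgs16, a G protein regulator of liver with a daily rhythm, had 9.60, 8.92 and 9.08 at 1 hour, against 5.31, 6.85, 7.16, 7.99 and 8.35 in the controls. Rgs16 was called (2.07 ± 0.59, adjusted p = 0.031), and the call was lost without any one of the 1-hour arrays or control replicates 1 or 3. Another probe set of Rgs16 was also called, at 1.04 (adjusted p = 0.036).

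The comparison with 6 hours asked which of these changes belong to the first hour, and it uses the same 3 arrays at 1 hour but no control. In it 1980 genes (10.9%) were called, 1171 (6.44%) higher and 809 (4.45%) lower at 1 hour than at 6 hours. The hybridization controls of these groups were close, at 10.30 ± 0.24 at 1 hour and 10.24 ± 0.03 at 6 hours, and 2186 genes were called with them as a covariate, 1978 of them shared. Of the genes called against control, 140 were also called against 6 hours. Higher than both control and 6 hours were 74 genes, higher than control but lower than 6 hours 24, lower than both 30, and lower than control but higher than 6 hours 12. For 570 of the higher and 207 of the lower genes the difference from 6 hours did not pass.

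Jun was higher at 1 hour than at 6 hours, where it lay at 8.05, 8.06, 7.86 and 7.83 (2.09 ± 0.51, adjusted p = 0.0039). Cirbp lay at 4.62 to 4.87 at 6 hours and was higher at 1 hour by 1.89 ± 0.34 (adjusted p = 9e-05). Ppp1r3g lay at 3.65, 4.09, 4.75 and 5.65 at 6 hours and was higher at 1 hour by 4.36 ± 1.10 (adjusted p = 0.0052). Each of these was higher at 1 hour than at both neighbouring points, and no 1-hour array overlapped a 6-hour one.

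Rgs16 (2.88 ± 0.62, adjusted p = 0.00086), Ccn1 (2.39 ± 0.35, adjusted p = 4e-06) and Rgs1 (1.18 ± 0.37, adjusted p = 0.03) were also higher at 1 hour than at 6 hours, the call for Rgs1 being lost without 1-hour replicate 1 or 2 or 6-hour replicate 2 or 4. Stbd1, a protein that ties glycogen to membranes, had 8.96, 9.10 and 9.04 at 1 hour and 6.95, 7.74, 7.24 and 7.77 at 6 hours, against 6.57, 8.32, 8.31, 8.45 and 8.22 in controls (1.61 ± 0.29 against 6 hours, adjusted p = 8.8e-05). Pfn2, an actin-binding profilin, was higher at 1 hour by 1.66 ± 0.41 (adjusted p = 0.0041). Other probe sets gave 0.69 for Ccn1 (adjusted p = 0.4) and 0.53 for Pfn2 (adjusted p = 0.084) against 6 hours.

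Clk1 was lower at 1 hour than at 6 hours too, where it lay at 8.34, 8.25, 8.01 and 8.32 (-1.68 ± 0.30, adjusted p = 8.1e-05). Tubb2a, a beta tubulin, had 8.51, 8.54 and 7.58 at 1 hour and 10.42, 10.12, 9.92 and 10.12 at 6 hours, against 10.94, 9.69, 10.44, 10.27 and 8.23 in controls, with control replicate 5 among the 1-hour arrays (-1.94 ± 0.41 against 6 hours, adjusted p = 0.00075). For Tubb2a another probe set gave -0.73 against 6 hours (adjusted p = 0.073). For Neat1 the difference of -1.51 ± 0.59 from 6 hours did not pass (adjusted p = 0.11). Ern1 and Cldn3, a tight junction claudin, were between: both were lower at 1 hour than in controls and higher than at 6 hours, by 1.27 ± 0.26 (adjusted p = 0.00058) and 1.85 ± 0.27 (adjusted p = 4e-06). Cldn3 had 8.79, 8.71 and 8.69 at 1 hour and 6.79, 7.28, 6.63 and 6.84 at 6 hours, against 10.24, 9.57, 9.80, 9.37 and 9.77 in controls, and no array of one group overlapped another group.

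Other genes were already called at 1 hour and stood higher at 6 hours. Mt2 lay at 13.03 to 13.11 at 6 hours, above 1 hour by a difference of -2.21 ± 0.56 (adjusted p = 0.0058), and Mt1 at 13.55 to 13.61 (-1.94 ± 0.50, adjusted p = 0.0064). Both of these calls were lost without 1-hour replicate 3. The Mt1 call was also lost with the mean of all probe sets, and another Mt1 probe set gave -0.95 (adjusted p = 0.6). St3gal5, a ganglioside synthase, had 8.41, 8.07 and 9.06 at 1 hour and 10.60 to 11.04 at 6 hours, against 6.52, 7.50, 7.43, 6.66 and 7.60 in controls (-2.38 ± 0.39, adjusted p = 2.4e-05). Snx10, an endosomal sorting protein, had 7.23, 7.42 and 7.61 at 1 hour and 9.28 to 9.42 at 6 hours, against 5.72 to 6.69 in controls (-1.92 ± 0.34, adjusted p = 5.6e-05). For Snx10 another probe set gave -0.73 against 6 hours (adjusted p = 0.44).

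Some genes that did not pass at 1 hour against control differed between 1 hour and 6 hours, while for Egr1, Junb, Igfbp1, Nfkbia, Myc and Fos neither difference passed (adjusted p of 0.31 to 0.78 against 6 hours). Cdkn1a lay at 10.23, 9.70, 10.09 and 10.02 at 6 hours (1 hour minus 6 hours -4.91 ± 0.66, adjusted p = 7.6e-07), and Socs3 at 11.15, 11.22, 10.83 and 11.09 (-2.71 ± 0.62, adjusted p = 0.002). Lcn2 lay at 12.55 to 12.63 (-5.86 ± 1.16, adjusted p = 0.00033) and Saa1 at 13.72 to 13.76 (-3.21 ± 0.95, adjusted p = 0.02), with the Saa1 call lost without 1-hour replicate 1 or 3. The zinc importer gene Slc39a14 lay at 10.93 to 11.12 at 6 hours (-2.60 ± 0.30, adjusted p = 2.3e-08), Ier3 at 7.15 to 7.68 (-2.77 ± 0.80, adjusted p = 0.017, lost without 1-hour replicate 1 or 2) and Ppargc1a at 7.25 to 7.51 (-1.60 ± 0.39, adjusted p = 0.0034, lost without 1-hour replicate 1). For Ppargc1a another probe set gave -0.81 against 6 hours (adjusted p = 0.25). Cyp7a1, which encodes the enzyme that sets the pace of bile acid production, had 10.31, 9.41 and 10.93 at 1 hour and 3.38, 3.51, 4.30 and 4.28 at 6 hours, against 9.44, 10.33, 9.82, 9.69 and 10.55 in controls. Its difference was 6.35 ± 1.19 from 6 hours (adjusted p = 0.00015) and 0.25 from control, with an interval of -2.04 to 2.54.

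By list, 9 of 24 acute phase genes, 7 of 19 IL-6 and STAT3 genes and 7 of 18 glucocorticoid-responsive genes were lower at 1 hour than at 6 hours, with 0, 0 and 1 higher. Of 15 cholesterol synthesis and uptake genes 8 were higher and 1 lower, and of 17 nuclear RNA and speckle genes 2 were higher and 7 lower. Of 24 ribosome biogenesis genes 1 was higher and 7 were lower. Over all genes tested, 6.44% were higher and 4.45% lower at 1 hour than at 6 hours.

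**Figure D5:**
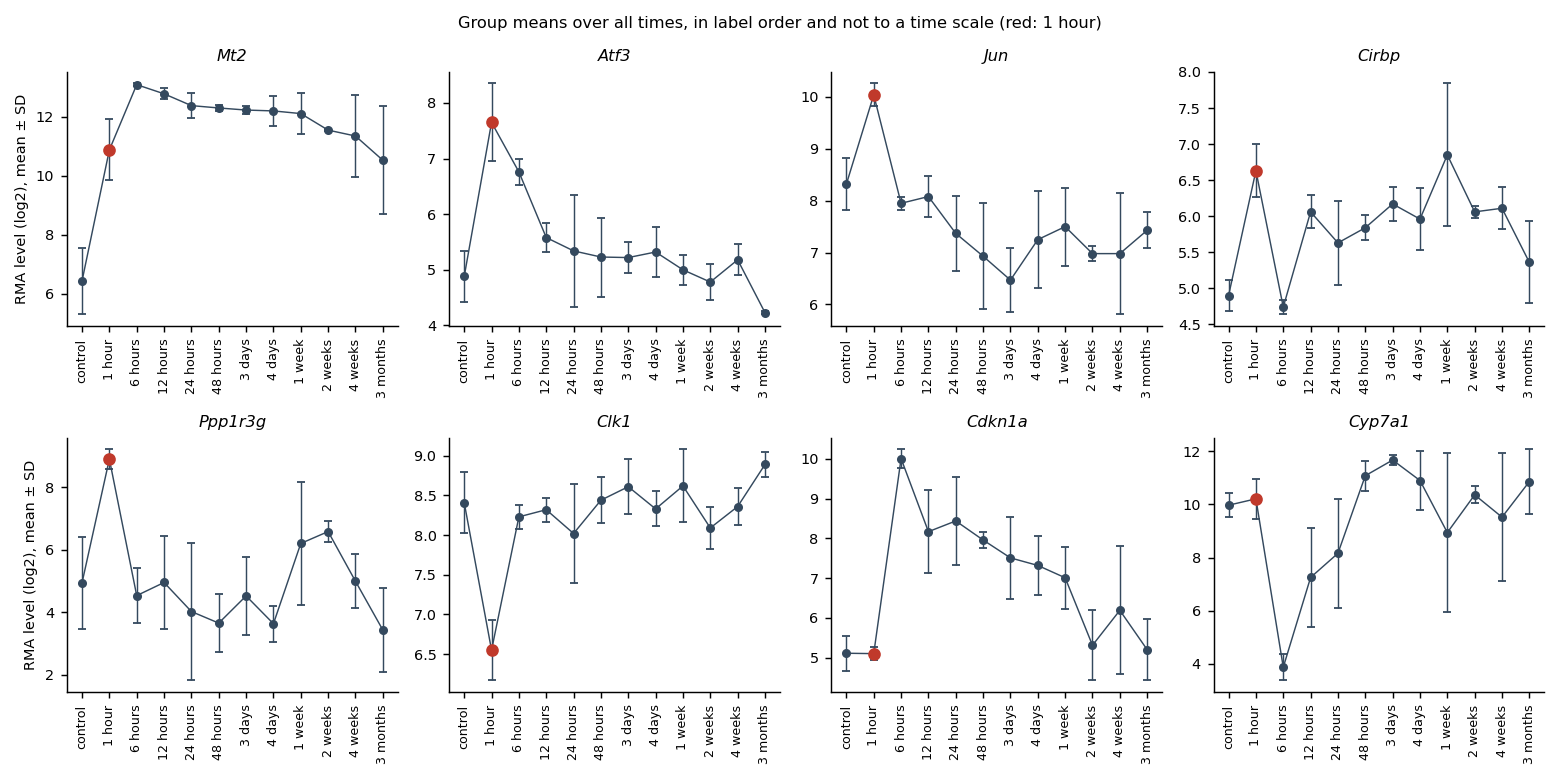
Mean level ± SD (log2, y axis) of 8 genes in the controls and at the 11 times after hepatectomy, in label order, with 1 hour in red. Jun, Ppp1r3g and Atf3 have their highest group mean and Clk1 its lowest at 1 hour, Mt2 is highest at 6 hours, and Cdkn1a and Cyp7a1 leave the control level after 1 hour.

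Across all 12 groups the 1-hour level was an extreme for part of these genes, as a description. Atf3 averaged 4.88 ± 0.46 in controls, 7.65 ± 0.70 at 1 hour, 6.76 ± 0.23 at 6 hours and 5.58 ± 0.26 at 12 hours, and between 4.23 and 5.34 from 24 hours on (SD). Jun averaged 8.32 ± 0.50 in controls, 10.04 ± 0.22 at 1 hour and 7.95 ± 0.12 at 6 hours, and lay between 6.47 and 8.08 later. Clk1 averaged 8.41 ± 0.38 in controls and 6.55 ± 0.38 at 1 hour, and lay between 8.02 and 8.89 at all later times, so the low level was seen at 1 hour among the times measured. Mt2 averaged 6.44 ± 1.13 in controls, 10.88 ± 1.03 at 1 hour and 13.09 ± 0.04 at 6 hours, and at 3 months was still at 10.53 ± 1.82, so for Mt2 the controls stood below every operated group mean. Cirbp averaged 4.90 ± 0.21 in controls, 6.63 ± 0.37 at 1 hour and 4.74 ± 0.10 at 6 hours, and 6.85 ± 0.99 at 1 week, within 1 SD of the level at 1 hour.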

How the data were processed

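Liver RNA was isolated with TRIzol, copied with oligo dT primers and hybridized as biotin-labelled cRNA to Affymetrix Mouse Genome 430 2.0 arrays, per the labels' protocols. The submitters' processing notes name RMA and the package oligo 1.52.0 as the source of the deposited log2 values. RMA brings the probes of all arrays to a common distribution, so a change shared by most genes can be hidden. The deposited probe set values still differed somewhat in distribution. Array medians were 3.97 to 4.01 at 1 hour and 4.01 to 4.10 in controls. Precision is limited by the number of arrays. Scanner files and scan dates were not used here.

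Of 45101 probe sets, 34958 had 1 gene in the platform annotation, 932 several and 9211 none; only those with 1 gene were named. They gave 18193 genes, of which 18032 matched the GRCm38.p6 gene table. The 9010 genes with several probe sets were represented by the brightest. All 52 arrays entered 1 limma 3.58.1 fit of group means (R 4.3.3), with 2 contrasts (1 hour minus control, 1 hour minus 6 hours), two-sided tests and Benjamini-Hochberg adjustment over all genes. A group mean under the median of all its probe sets was taken as background, and a fold against it as a bound. In data simulated for 1 hour against control with 18193 genes, 85% of 100 genes changed 2-fold and 98% of 100 changed 4-fold were called. Of the unchanged genes 7 were called. The simulated noise was independent for each gene and array. It held no shift shared by many genes of an array, such as that of control replicate 1, so these shares may overstate recovery here. Promoters came from RefSeq (GRCm38.p6).

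The members and lists were chosen with earlier results of these data known. Genes were named by rule: up to 20 highest and 12 lowest called genes whose groups do not overlap, up to 5 called members per list with the largest of the rarer direction, a fixed set of index genes, all metallothionein and zinc genes, and up to 10 highest and 10 lowest genes called in both contrasts. Alternatives were a replicate block, the groups of a contrast alone, other probe set rules, a filter on dim genes, 2 scalings, 2 variance models, stricter thresholds, 3 control-probe covariates, removal of control replicate 1 together with 6 later arrays doubted in earlier work on these data and removal of each array.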

Additional observations from a re-analysis of the deposited data

Results flagged for a closer look

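For 24 of 27 genes tested, the change from control at 1 hour differed from the change from control at 6 hours, and since the controls cancel this is the difference between the 2 times in limma. It was positive (1 hour higher) for Cyp7a1 (6.35), Ppp1r3g (4.36), Rgs16 (2.88), Ccn1 (2.39), Jun (2.09), Cirbp (1.89), Cldn3 (1.85), Pfn2 (1.66), Stbd1 (1.61), Ern1 (1.27) and Rgs1 (1.18). It was negative for Lcn2 (-5.86), Cdkn1a (-4.91), Saa1 (-3.21), Ier3 (-2.77), Socs3 (-2.71), Slc39a14 (-2.60), St3gal5 (-2.38), Mt2 (-2.21), Mt1 (-1.94), Tubb2a (-1.94), Snx10 (-1.92), Clk1 (-1.68) and Ppargc1a (-1.60). Most of these genes were named because they passed this contrast, so the share has no meaning of its own.

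In 8 of 119 groups of 4 or 5 arrays, 1 array lay far from the others by Dixon's criterion, which chance meets in about 1 of 20 groups. Among controls these were Csrnp1 with a highest array of 7.31, Saa1 with a highest array of 11.97, and Egr1 (8.77), Fbp1 (11.32), C1qa (4.04) and Apob (12.54) with a low array. Control replicate 1 was that array for Csrnp1, Fbp1, C1qa and Apob, replicate 2 for Saa1 and replicate 5 for Egr1. At 6 hours these were Mt2 (13.03) and Slc39a14 (10.93), both low in replicate 2, in groups with a narrow range.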

How the results depend on the processing

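The 917 genes called against control became 2344 with array weights, 16, 376 and 237 with the hybridization, poly-A and Gapdh covariates, 321 at an adjusted p under 0.01, 198 at 2-fold or more and 1656 when every probe set was tested, 47 of those genes having probe sets called both ways. Leaving out 1 array gave 269 to 1111 genes: 269, 373 and 473 without 1-hour replicates 1, 2 and 3, and 334 without control replicate 1. The 1980 genes called against 6 hours became 4795 in the fit of those groups alone, 4870 with array weights, 2994 without the doubted arrays, 1141 at an adjusted p under 0.01 and 918 at 2-fold or more, and 1294 to 1637 without 1 array (1294 without 1-hour replicate 1). With the replicate block 1022 and 2073 genes were called. Same-number arrays did not deviate together (r from -0.054 to 0.054), so the numbers were not taken as pairs, and under the block the calls of Jun, Inhba and Apob against control and of Saa1 against 6 hours were lost. The sign turned by another probe set for Atf4 (0.22), Ccn1 (-1.08), Hadhb (-0.64), Srsf3 (-0.09), Prpf4b (0.85), Ern1 (0.14 against control, -0.41 against 6 hours) and Apob (1.80), and by the mean of all probe sets for Ccn1 (-0.05) and Apob (0.66). Over all alternatives, 1653 of 2003 values of the 89 genes set against control kept their call, 322 lost it, 19 gained it and 9 turned sign. Against 6 hours, 555 of 584 values of 27 genes kept it, 23 lost it, 5 gained it and 1 turned. The cause was not tested. Genes below the median of all probe sets in both groups, such as Il6, have no measured level here.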
